A study of Mus musculus with 6 samples.

Results

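The 4 genes described here encode heavy chains of MHC class I molecules: H2-K1, a classical chain, and H2-Q4, H2-Q6 and H2-Q7 of the Q region. They were chosen by symbol from a deposited table of 714 mouse genes, with earlier results of these data known, so their presence in it is no result. The table holds RNA sequencing values of bone marrow-derived macrophages in 6 libraries, 3 wild-type and 3 Senp8+/-. All cells were labelled C57BL/6, were grown from flushed marrow with GM-CSF at 10 ng/ml for 6 days, and received beads carrying CD47, with RNA taken 24 h later. CD47 is a surface protein that signals to the macrophage receptor SIRPα and holds back engulfment, and no cells without the beads were analysed here. Senp8 encodes a protease of the NEDD8 pathway. The sources used here do not say how its altered copy was made, and Senp8 has no value here, so its level could not check the labels. The sample titles call the heterozygous cells KO, and they are called Senp8+/- here.

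A class I molecule is a heavy chain paired with β2-microglobulin, and it carries a short peptide to the cell surface. The peptide is cut by the proteasome, moved into the endoplasmic reticulum by the TAP transporter and loaded there with the help of tapasin. Classical chains such as H2-K1 show peptides to CD8 T cells and are made by nearly all nucleated cells, with more in cells exposed to interferon. The Q-region chains are non-classical, and H2-Q6 and H2-Q7 are known for the Qa-2 antigen, which is held in the membrane by a lipid anchor.

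The table lists genes that the authors selected. Its largest unadjusted p was 0.0499, and no listed gene had an absolute log2 fold change under 1. The fold changes of the 4 genes are therefore a description, read beside the other listed genes. Values are normalised counts, that is, reads divided by 1 size factor per library, and errors are SDs over 3 libraries unless named otherwise. The size factors lay between 0.933 and 1.14, and the reads over the listed genes between 205957 and 491156. Total depth is unknown here. The labels name no animal or culture for a library, so the p-values here speak only to how far the libraries differed, and that spread could be technical. No fit held a term for donor sex, so the differences between genotypes described here are not separated from it. Y chromosome genes that bear on this are given after the cell markers. "Fell" is written of a gene with an adjusted p under 0.05 in the authors' deposited table.

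The genes lie on chromosome 17 in the H-2 complex. In the deposited coordinates H2-K1 (ENSMUSG00000061232) runs from 33996017 to 34000333 on the minus strand. The lowest coordinate of each of the 4 genes is the same in the GENCODE M21 annotation of GRCm38. The highest coordinate of H2-K1, where a minus-strand gene begins, is 34000347 there. H2-Q4 (ENSMUSG00000035929) runs from 35379617 to 35385290, H2-Q6 (ENSMUSG00000073409) from 35424850 to 35430055 and H2-Q7 (ENSMUSG00000060550) from 35439155 to 35443773, all on the plus strand. The 3 Q genes span 64.2 kb and begin 1.38 Mb beyond H2-K1. The 250 bases before each annotated start are printed (RefSeq, GRCm38.p6, 5′ to 3′ on the gene's strand). Whether these windows bear on the lower values was not tested. Capitals mark matches on either strand to 4 motifs: GGGGATTCCCC (at the NF-kB site of class I promoters), TTTCACTTCT (in their interferon response element), TGACG (the core of a cAMP response element) and CCAAT. The first pair was read from the H2-K1 window. The motifs do not overlap each other in these windows.
H2-K1, chr17:34000334-34000583, minus strand: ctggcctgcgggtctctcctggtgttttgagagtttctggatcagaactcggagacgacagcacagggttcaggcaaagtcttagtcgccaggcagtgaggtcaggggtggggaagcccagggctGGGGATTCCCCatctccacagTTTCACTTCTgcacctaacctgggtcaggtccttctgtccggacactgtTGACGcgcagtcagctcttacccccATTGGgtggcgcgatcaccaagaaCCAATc
H2-Q4, chr17:35379367-35379616, plus strand: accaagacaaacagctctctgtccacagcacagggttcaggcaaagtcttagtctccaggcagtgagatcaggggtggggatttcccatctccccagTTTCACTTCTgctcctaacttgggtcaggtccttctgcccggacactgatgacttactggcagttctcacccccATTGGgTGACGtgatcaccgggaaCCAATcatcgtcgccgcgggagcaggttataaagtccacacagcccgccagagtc
H2-Q6, chr17:35424600-35424849, plus strand: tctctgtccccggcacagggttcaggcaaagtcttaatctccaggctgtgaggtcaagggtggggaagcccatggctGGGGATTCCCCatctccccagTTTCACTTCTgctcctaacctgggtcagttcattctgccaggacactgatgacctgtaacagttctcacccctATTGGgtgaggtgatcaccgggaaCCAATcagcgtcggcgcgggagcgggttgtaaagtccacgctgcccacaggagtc
H2-Q7, chr17:35438905-35439154, plus strand: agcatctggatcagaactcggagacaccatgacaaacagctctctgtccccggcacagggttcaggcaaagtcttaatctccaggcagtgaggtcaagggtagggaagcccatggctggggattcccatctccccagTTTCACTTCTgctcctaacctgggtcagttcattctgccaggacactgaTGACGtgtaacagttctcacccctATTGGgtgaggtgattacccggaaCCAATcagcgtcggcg

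All 4 windows held TTTCACTTCT, which 43 of 32851 windows of that length in the RefSeq table held (0.131%), and all 4 held CCAAT, against 33.8%. The motifs were chosen after the sequences were seen, so these counts describe the windows and test nothing. H2-K1 and H2-Q6 held GGGGATTCCCC, found in 10 of the 32851 windows (0.0304%). TGACG was found in H2-K1, H2-Q4 and H2-Q7, against 17.8% of windows. Where the 4 promoters differ is easier to see at 2 positions. The first follows here, with the bases at the NF-kB position in capitals.
H2-K1: tGGGGATTCCCCatctcc
H2-Q4: tGGGGATTTCCCatctcc
H2-Q6: tGGGGATTCCCCatctcc
H2-Q7: tGGGGATTCCCatctcc
H2-Q7 has 10 bases in this stretch and the others 11. At the other position the capitals are the 8 bases that follow a shared ggacactg.
H2-K1: ggacactgTTGACGCG
H2-Q4: ggacactgATGACTTA
H2-Q6: ggacactgATGACCTG
H2-Q7: ggacactgATGACGTG
The TGACG of H2-Q4 therefore stands elsewhere in its window, between its CCAAT matches, and not at this position. Over the aligned bases the H2-Q6 and H2-Q7 windows were 97.6% identical, H2-Q4 was 89.3% identical to H2-Q6, and H2-K1 was 84.6% identical to H2-Q6. A match is a description of the letters. The distance from motif to start depends on the annotated start, so the response element core begins 104 bases before the start in H2-K1 and 153 in H2-Q4.

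H2-K1 had the highest normalised count of the table in both genotypes, not divided by gene length. It stood at 61328, 63519 and 42383 in wild-type replicates 1, 2 and 3, and at 23883, 21758 and 26553 in the Senp8+/- replicates. The lowest wild-type library was 1.60 times the highest Senp8+/- library, so the genotypes did not overlap, and wild-type replicate 3 was the one nearest to the Senp8+/- values. The means were 55743 ± 11622 and 24065 ± 2403, which leaves 43.2% of the wild-type level. The authors' deposited table gives a log2 fold change of -1.21 (adjusted p = 9.23e-05). In these bulk samples, here and below, fewer cells of a type and less RNA per cell cannot be told apart.

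H2-Q4 stood at 2287, 2058 and 2304 in wild type and at 532, 395 and 519.6 in Senp8+/-. The 3 wild-type libraries lay close together, and the lowest was 3.87 times the highest Senp8+/- library. The mean fell 4.59-fold, from 2216 ± 138 to 482 ± 75.6, with a log2 fold change of -2.20 in the authors' deposited table (adjusted p = 1.50e-20). The reads behind these values were 425 to 517 per Senp8+/- library and 1949 to 2637 per wild-type library.

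H2-Q6 stood at 1161, 1154 and 977 in wild type and at 148, 109.8 and 146 in Senp8+/-. Its gap was the widest of the 4, with the lowest wild-type library 6.59 times the highest Senp8+/- library. The mean fell 8.15-fold, from 1097 ± 104 to 135 ± 21.5. In the authors' deposited table it has the smallest p-value of all 714 genes and a log2 fold change of -3.03 (adjusted p = 1.82e-33).

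H2-Q7 stood at 1143, 1469.5 and 786 in wild type and at 150.3, 134 and 215 in Senp8+/-. It varied most between libraries of 1 genotype, with a coefficient of variation of 30.2% in wild type against 6.21% for H2-Q4. Even so the lowest wild-type library was 3.65 times the highest Senp8+/- library. The mean fell 6.80-fold, from 1133 ± 342 to 167 ± 43.0, and the authors' deposited table gives -2.77 on the log2 scale (adjusted p = 4.33e-14).

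**Figure D1:**
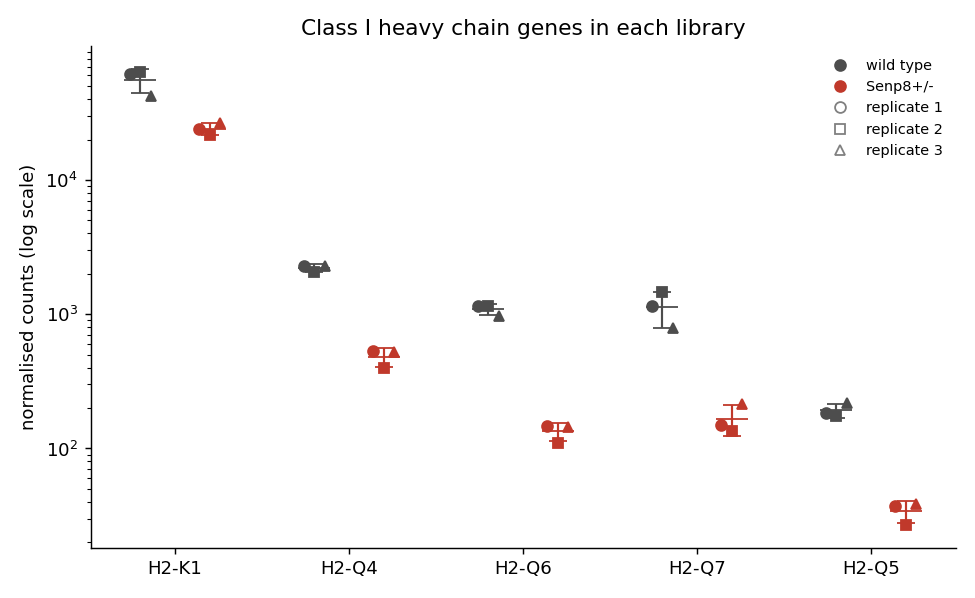
Normalised counts (log axis) of H2-K1, the 3 Q-region genes and their neighbour H2-Q5, described further on, in each of the 6 libraries. Points are libraries, with a symbol per replicate number, and bars are means ± SD (n = 3). For each gene the 3 Senp8+/- points lie below the 3 wild-type points, and the gap is narrowest for H2-K1.

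All 4 genes fell, and none overlapped between genotypes. Among the genes of the authors' correction 1.65% fell by the same rule, and among the listed genes 33.9% did. Lower values without overlap were found for 70.6% of the listed genes, so the lack of overlap does not set the 4 apart. The size of the change did differ among them. Over the listed genes the median log2 fold change was -1.39 in limma, fitted to log2(normalised count + 1) with p-values adjusted over the 14694 genes of the authors' correction. The pseudocount of 1 understates the change of low genes. In the same fit H2-K1 stood at -1.19 ± 0.22 (SE; limma, adjusted p = 0.0185) and H2-Q4 at -2.21 ± 0.26 (SE; limma, adjusted p = 0.00119). H2-Q6 stood at -3.03 ± 0.28 (SE; limma, adjusted p = 2.50e-04) and H2-Q7 at -2.74 ± 0.32 (SE; limma, adjusted p = 0.00124). H2-Q6 ranked 30 and H2-K1 437 of 714 when genes were ordered from the largest fall. limma placed 149 listed genes past the threshold as lower, which is 20.9%.

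The limma result of H2-K1 was lost when any library but wild-type replicate 3 was left out. Its adjusted p was then 0.140, 0.194 and 0.0930 without Senp8+/- replicates 1, 2 and 3, and 0.285 and 0.0908 without wild-type replicates 1 and 2. Without wild-type replicate 1 the limma adjusted p of H2-Q4 was 0.0871 and that of H2-Q7 0.0912. H2-Q6 passed with each library left out. Over the listed genes, the 149 that limma called lower became 82, 32 and 75 without Senp8+/- replicates 1, 2 and 3, and 7 and 96 without wild-type replicates 1 and 2. With the libraries rescaled to equal medians over the listed genes, H2-K1 stood at -0.18 (limma, adjusted p = 1) and the Q genes at -1.19, -2.02 and -1.73. That rescaling raised log2 fold changes by 1.01, and it rests on listed genes that are mostly lower in Senp8+/-.

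The comparison of H2-K1 with the Q genes needs no scaling between libraries, because each ratio is taken within a library. The Q genes fell further than H2-K1. H2-Q4 amounted to 3.73%, 3.24% and 5.44% of H2-K1 in wild-type replicates 1, 2 and 3, and to 2.23%, 1.82% and 1.96% in the Senp8+/- replicates. H2-Q6 amounted to 1.89%, 1.82% and 2.30% in wild type and to 0.621%, 0.505% and 0.549% in Senp8+/-. H2-Q7 amounted to 1.86%, 2.31% and 1.86% in wild type and to 0.629%, 0.616% and 0.811% in Senp8+/-. In each of these ratios every Senp8+/- library lay below every wild-type library, and the separation was narrowest for H2-Q4.

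limma was fitted to the log2 ratio of every other listed gene to H2-K1, with Benjamini-Hochberg adjustment over those 713 genes. The log2 ratio of H2-Q6 changed by -1.83 ± 0.24 in Senp8+/- (SE; limma, adjusted p = 4.36e-04). The change was -1.55 ± 0.25 for H2-Q7 (SE; limma, adjusted p = 0.00109) and -1.01 ± 0.25 for H2-Q4 (SE; limma, adjusted p = 0.00977). Of the 713 genes, 64 were lower relative to H2-K1 in Senp8+/- by this test (8.98%), and 38 without wild-type replicate 1. Another 145 rose relative to H2-K1, which the selection of the listed genes favours for any gene higher in Senp8+/-. Those calls share the adjustment and can lower the adjusted p of the Q genes. All 713 ratios share the H2-K1 values, so the tests are not independent. Each of the 3 changes stayed under an adjusted p of 0.05 with any 1 library left out, while H2-Q4 came to 0.0506 without the mean-variance trend. With 1 library left out the H2-Q4 change ranged from -1.17 to -0.80, the latter without wild-type replicate 3. Its highest limma adjusted p was then 0.0493, without Senp8+/- replicate 2.

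**Figure D2:**
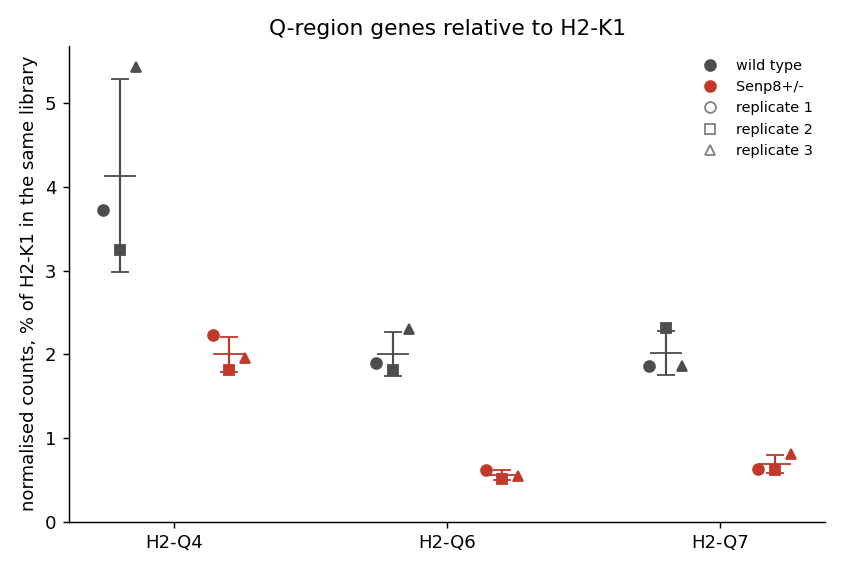
H2-Q4, H2-Q6 and H2-Q7 as a percent of the H2-K1 normalised count of the same library. Points are libraries and bars are means ± SD (n = 3). H2-Q6 and H2-Q7 lie between 1.82% and 2.31% in wild type and between 0.505% and 0.811% in Senp8+/-.

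The summed Q genes amounted to 8.15% ± 1.25 of H2-K1 in wild type and 3.24% ± 0.278 in Senp8+/- (n = 3 each). On the log2 scale the change was -1.32 ± 0.14 (SE), and the exact two-sided permutation test gave p = 0.10, the smallest that 3 against 3 libraries allow. As a share of all 4 heavy chain counts, the Q genes took 6.86% to 8.76% in wild type and 2.85% to 3.36% in Senp8+/-. H2-K1 made up the rest, so the sum over the 4 genes follows H2-K1 almost alone.

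Ratios were also taken among the Q genes. H2-Q6 amounted to 50.8%, 56.1% and 42.4% of H2-Q4 in wild type, and to 27.9%, 27.8% and 28.0% in Senp8+/-. The genotypes did not overlap, and the Senp8+/- libraries were nearly equal to each other. The log2 change was -0.83 ± 0.12 (SE; exact permutation p = 0.10, and 0.30 adjusted over the 3 ratios). H2-Q7 relative to H2-Q4 overlapped between genotypes, with a log2 change of -0.54 ± 0.35 (SE; exact permutation p = 0.20, adjusted p = 0.30) and -0.28 without wild-type replicate 2. H2-Q7 relative to H2-Q6 overlapped as well, with a log2 change of 0.29 ± 0.25 (SE). That change was 0.13 without wild-type replicate 3, 0.15 without Senp8+/- replicate 3 and 0.46 when wild-type replicate 2 was left out. This ratio stood at 98.5%, 127% and 80.5% in wild type and 101%, 122% and 148% in Senp8+/- (exact permutation p = 0.40, adjusted p = 0.40). With 3 libraries per genotype these exact tests could not pass 0.05 whatever the values.

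Levels can be compared between genes only per length. Per kb of the deposited gene length, wild-type H2-K1 stood at 21374 ± 4456 normalised counts, H2-Q4 at 854 ± 53.0, H2-Q6 at 526 ± 50.0 and H2-Q7 at 266 ± 80.1. In Senp8+/- the levels per kb were 9227 ± 921 for H2-K1, 186 ± 29.1 for H2-Q4, 64.5 ± 10.3 for H2-Q6 and 39.0 ± 10.1 for H2-Q7. The order was the same in both genotypes, and no neighbours in it overlapped between libraries. The place of H2-Q7 rests on its length, which is 4265 bases in the deposited table, whereas its longest coding transcript in GENCODE M21 has 1523. In normalised counts not divided by length, H2-Q6 and H2-Q7 overlapped in each genotype.

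Class I genes are close copies, and reads that fit several genes can be dropped or assigned to the wrong one. The read length and the handling of such reads are not stated in the sources. In the coding transcripts of GENCODE M21, 39.2% of the distinct 50-base stretches of H2-Q4 occur exactly in a transcript of another gene. The share was 35.0% for H2-Q6 and 34.9% for H2-Q7, but 6.87% for H2-K1. At 100 bases it came to 13.9% for H2-Q4, 13.0% for H2-Q6, 17.2% for H2-Q7 and 0% for H2-K1. At 150 bases it came to 8.39%, 5.99% and 8.31% for the 3 Q genes, and again 0% for H2-K1.

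Most of what H2-Q6 shares at 100 bases is shared with H2-Q7, 8.36% of its stretches. H2-Q7 shares 9.34% of its stretches with H2-Q6 and 7.87% with the neighbouring H2-Q5. H2-Q4 shares 11.1% with Gm11131, an antisense gene that overlaps it, and strand in the counting is not given. Gm11131 was listed at 10.2 in Senp8+/- and 31.3 in wild type, far below H2-Q4, and did not pass the test (authors' deposited table, adjusted p = 0.0673). The larger part of each Q transcript is thus distinct at 100 bases in this annotation. H2-Q8 and H2-Q9, which RefSeq lists and GENCODE M21 does not name on its chromosomes, could add reads to their closest copies, and this was not tested.

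**Figure D3:**
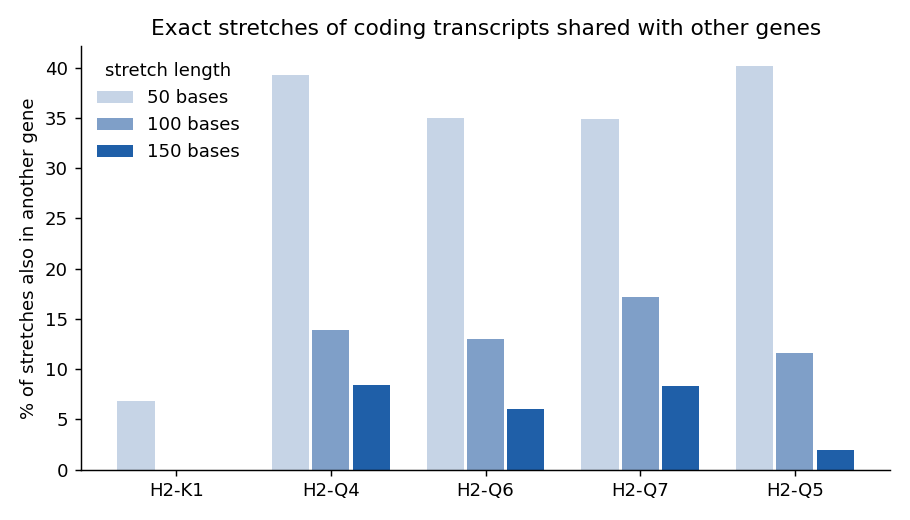
Percent of the distinct 50-, 100- and 150-base stretches in the coding transcripts of each gene that also occur, letter for letter, in a transcript of another gene (GENCODE M21, either strand). H2-K1 has 6.87% at 50 bases and 0% at 100 and 150 bases, while H2-Q4, H2-Q6 and H2-Q7 have 5.99% to 8.39% at 150 bases, with H2-Q5 below them.

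Of 28 class I heavy chain genes in a list drawn up for this report, 6 were listed and all 6 fell, beside 33.9% of all listed genes. Besides the 4 members these were H2-M2 and H2-M3. limma called 5 of the 6, since H2-M3 had a limma adjusted p of 0.149. The list's other genes have no value here. H2-M3, which presents formylated peptides of bacteria, stood at 1062, 1187 and 739 in wild type and 479.7, 474 and 521 in Senp8+/-. It fell 2.03-fold, and its ratio to H2-K1 changed by 0.20 ± 0.21 on the log2 scale (SE; limma, adjusted p = 0.618), opposite in sign to the Q genes. H2-M2 stood at 904, 975 and 561 in wild type and 214, 226 and 259 in Senp8+/-. It fell 3.49-fold, and its ratio to H2-K1 changed by -0.57 ± 0.23 (SE; limma, adjusted p = 0.102).

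H2-Q5, annotated as a polymorphic pseudogene, lies between H2-Q4 and H2-Q6 and was added after its values were seen. It stood at 184, 175 and 218 in wild type and 37.1, 27.0 and 38.6 in Senp8+/-. It fell 5.62-fold, within the range of the other Q genes, and its ratio to H2-K1 changed by -1.27 ± 0.35 (SE; limma, adjusted p = 0.0175). Fcgrt, the class I-like receptor that recycles IgG, was the 1 listed gene of 9 class I-like genes outside the H-2 complex. It fell 2.40-fold, from 550 ± 196 to 229 ± 12.6, and limma did not call it (adjusted p = 0.147).

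Of 12 genes for the partner chain and peptide loading, 2 were listed and both fell, beside 33.9% of all listed genes. Tap1, a subunit of the peptide transporter, fell from 3835 ± 832 to 1662 ± 213, and Tapbp, which encodes tapasin, from 12641 ± 3006 to 5851 ± 1061. limma called Tap1 (adjusted p = 0.0485) and not Tapbp (adjusted p = 0.0628). B2m, the gene of β2-microglobulin, has no value here. Of 10 peptide supply genes 4 were listed, all lower, and 1 fell, which is no more than that share. The 1 that fell was the immunoproteasome subunit gene Psmb9, from 2096 ± 673 to 980.4 ± 173, a call that limma did not make (adjusted p = 0.168). Psmb8, Psmb10 and Psme2 did not pass and overlapped between genotypes, with wild-type replicate 3 at 46.3%, 44.3% and 29.4% of the mean of the other 2 wild-type libraries.

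Of 23 genes that regulate class I transcription, Irf1 alone was listed. Irf1, an interferon-induced factor that binds the response element printed above, fell from 4082 ± 420 to 1655 ± 476. The fall was 2.47-fold, and the ratio of Irf1 to H2-K1 changed by -0.14 ± 0.23 on the log2 scale (SE; limma, adjusted p = 0.797). Nlrc5, the transactivator of class I genes, has no value here. Of the 14 listed genes in the class I lists up to here, H2-Q6, H2-Q7 and H2-Q4 had the 3 largest folds between genotype means. H2-M2 came next at 3.49-fold. Outside those 14, H2-Q5 fell 5.62-fold, more than H2-Q4, and the receptor gene Klrk1, described at the end, fell 3.89-fold, more than H2-M2.

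**Figure D4:**
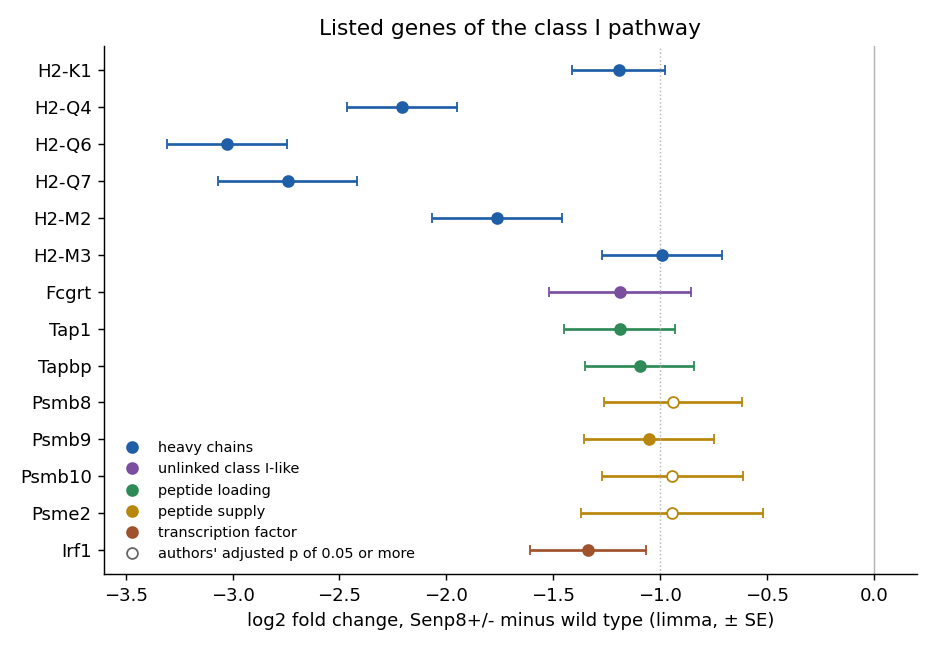
limma log2 fold change, Senp8+/- minus wild type, with its SE, on the log2(normalised count + 1) scale, for listed genes of the class I pathway. Filled points have an adjusted p under 0.05 in the authors' deposited table. The Q genes lie between -3.03 and -2.21 and H2-K1 at -1.19. The dotted line is the selection limit of a 2-fold difference, which holds for the authors' own log2 fold changes. limma values can lie inside it, such as H2-M3 at -0.99.

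The listed genes around the 4 members are described next. Between H2-K1 and H2-M2, an interval of 3.49 Mb set after the values were seen, 29 genes were listed, 28 lower and 1 higher in Senp8+/-, and 20 fell, beside 33.9% over all listed genes. GENCODE M21 places 173 protein-coding genes there, of which 26 were listed. The share listed elsewhere in the genome was not computed. Within this stretch H2-Q6 had the largest fall in the authors' deposited table, and H2-Q7 was close to the complement gene Cfb, at -2.77 and -2.78 on the log2 scale. Ubd, a ubiquitin-like gene, was listed at -2.85 with very few reads and did not pass (adjusted p = 0.518). Ly6g5b, the 1 gene that was higher, did not pass either.

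**Figure D5:**
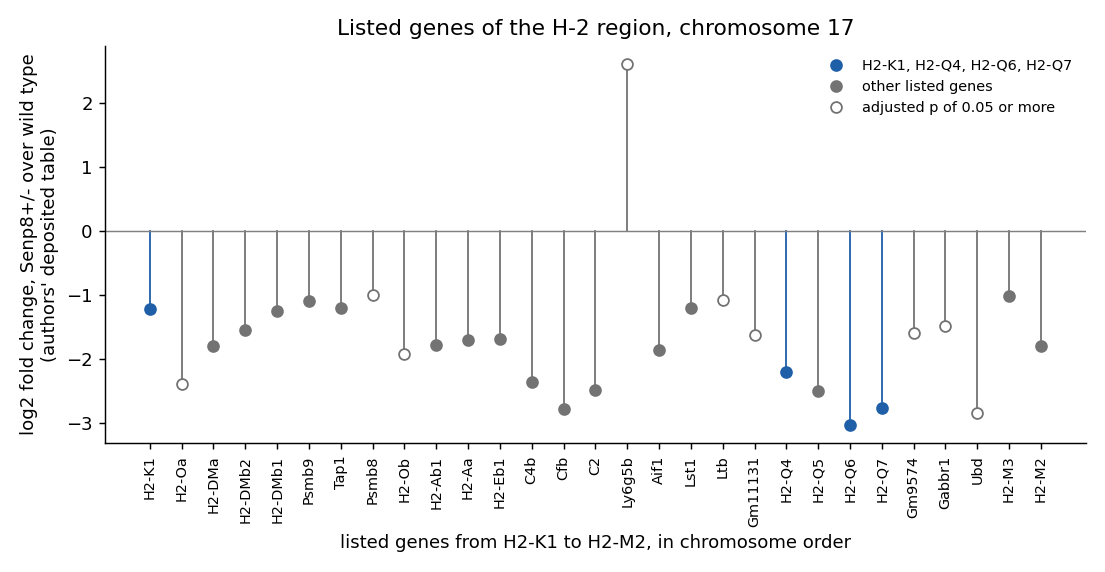
log2 fold change in the authors' deposited table for the 29 listed genes from H2-K1 to H2-M2, in chromosome order. Blue marks the 4 heavy chain genes and open points did not pass an adjusted p of 0.05. The Q genes stand at -2.20, -3.03 and -2.77, and H2-K1 at -1.21.

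The genes most like each member were sought by Pearson correlation of log2(normalised count + 1) over the 6 libraries, among 328 other genes with a mean over all libraries at or above the table's median of 26.8, leaving out predicted genes (symbols of Gm with digits or ending in Rik). Such values are high throughout and mostly restate the genotype difference for which the genes were listed: 134 to 155 of the 328 had r over 0.9 with a given member. H2-K1 was most like H2-Aa (r = 0.999) and H2-Eb1 (r = 0.997), chains of MHC class II, and Plbd1 (r = 0.996). H2-Q4 was most like its neighbour H2-Q5 (r = 0.998), the class II invariant chain gene Cd74 (r = 0.997) and Fgl2 (r = 0.994). H2-Q6 was most like Kcnq1 (r = 0.997), Lgals3bp (r = 0.995) and Fgl2 (r = 0.995). H2-Q7 was most like Ly6i (r = 0.997), Fcrl1 (r = 0.995) and Cd5l (r = 0.995). Ly6i and Fcrl1 had Senp8+/- means of 21.7 and 18.5, under the 26.8 cut. They passed it only through their wild-type means of 339 and 44.3. Of 11 class II genes 10 were listed and 8 fell, beside 33.9% of all listed genes. limma placed 6 of the 10 past its threshold, and their median limma log2 fold change was -1.67, against -1.39 over all listed genes.

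Markers of other cells were also among the listed genes, of which 33.9% fell, and class I genes are expressed in most cell types. Of 15 T and NK cell markers 7 were listed and 5 fell, and their summed level was 14.9 to 25.7 in Senp8+/- and 126 to 213 in wild type, with Gzma and Ncr1 at 0 reads in Senp8+/-. Of 10 dendritic cell markers 2 were listed and both fell, with sums of 177 to 276 and 545 to 786. Of 11 neutrophil markers 3 were listed and 3 fell, with sums of 358 to 561 and 1187 to 1566 and Retnlg at 0 reads in Senp8+/-. Of 12 stromal and endothelial markers 9 were listed and 3 fell, near the share over all listed genes, while 6 did not pass. Their sums were 397 to 722 in Senp8+/- and 723 to 1805 in wild type. Thy1, which fell, belongs to this list and to the T and NK cell list and is counted in both. The 1 listed B cell marker of 8, Cd79b, did not pass, at 10.7 to 12.4 and 25.3 to 46.5.

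Of 12 macrophage markers 2 were listed, C1qa and C1qc, and neither passed, while 33.9% of all listed genes fell. Both were lower in Senp8+/-, at 47.6% and 48.5% of the wild-type mean, and overlapped between genotypes. Their sums were 8169 to 11604 in Senp8+/- and 10922 to 24342 in wild type. The other 10 have no value here, so the labelled cell type could be checked only in part. The part of these cell types in the class I falls was not tested. The Y chromosome genes Ddx3y, Eif2s3y and Uty were higher in Senp8+/-. Their limma adjusted p was 0.0303, 0.0595 and 0.197, so limma called Ddx3y and not the others. Whether the share of male donors differed between the genotypes, and its part in the class I falls, was not tested.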

How the data were processed

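The submitters' processing notes name HISAT2 2.0.5 (alignment software) and featureCounts 1.5.0-p3 (read counting), with no settings. The build, annotation and test tool are not stated in the sources. The deposited signal is reads divided by 1 size factor per library. 100% of values were whole multiples of 1 step, within 1e-06 of a read, so reads were recovered. The deposited table also gives the authors' log2 fold change, p-values and adjusted p-values, and the latter imply 14694 genes in their correction. Columns of other samples numbered 0.

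On log2(value + 1) of 714 genes, limma 3.58.1 (R 4.3.3) was run with its trend option, with genotype as the only term and Benjamini-Hochberg adjustment over 14694 genes, unlisted genes taken to have larger p-values. Ratios to H2-K1 were fitted the same way and adjusted over 713 genes. The fits were checked on simulated data. edgeR 4.0.16 and DESeq2 1.42.0 on recovered reads, pseudocounts of 0.5 and 5, a mean of at least 10, no trend, a replicate block, equal medians and leaving out each library were alternatives. Promoters came from RefSeq and were aligned with Biopython 1.88. Named were the 4 members, listed genes of the class I lists and, per member, the 3 most correlated genes. Members and lists were chosen with earlier results of these data known. Genes named outside this rule, such as Gm11131, Cfb, Ubd, Ly6g5b, Ciita and the Y chromosome genes, were added.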

Additional observations from a re-analysis of the deposited data

How the results depend on the processing

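The lower values of the 4 genes kept their direction under each alternative run. The H2-K1 call was lost in 5 of 6 fits with 1 library left out and under 2 other settings: without the mean-variance trend it stood at -1.19 (limma, adjusted p = 0.204), and with equal medians at -0.18 (adjusted p = 1). The ratio of H2-Q4 to H2-K1 stood at -1.01 without the trend (limma, adjusted p = 0.0506). With 1 library left out the log2 fold change ranged from -1.38 to -1.09 for H2-K1, from -2.29 to -2.07 for H2-Q4, from -3.11 to -2.89 for H2-Q6 and from -2.98 to -2.53 for H2-Q7. Of those 6 fits each, 1, 5, 6 and 5 passed for the 4 genes in that order. The cause was not tested. edgeR on the recovered reads gave H2-K1 -1.21 (adjusted p = 0.00697) and DESeq2 -1.21 (adjusted p = 0.00438). The number of listed genes past the limma threshold was 176, and came to 11 with wild-type replicate 1 left out and at most 181, reached by leaving out wild-type replicate 3. With equal medians 21.9% of calls were lower, against 84.7%. The count of genes that limma called lower relative to H2-K1 was 64, and 38 without wild-type replicate 1. The replicate block left each call in place (H2-K1 -1.19, limma adjusted p = 0.0274; ratio of H2-Q4 to H2-K1 adjusted p = 0.0303). The labels do not say whether same-numbered libraries were prepared together. Their deviations from the genotype mean correlated at 0.01, 0.04 and -0.24, and those of other pairs at -0.24 to 0.22. With 3 libraries per genotype and selected genes, these values cannot decide it.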

Other observations

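Wild-type replicate 3 stood apart from the other 2 wild-type libraries in some class I pathway genes and not in others. Relative to their mean it held 67.9% for H2-K1, 60.2% for H2-Q7, 59.7% for H2-M2, 65.8% for H2-M3 and 48.8% for Fcgrt. For H2-Q4 it held 106%, for H2-Q5 121%, for Tap1 123% and for Tapbp 127%, with H2-Q6 between the groups at 84.4%. Among class II genes it held 58.9% for H2-Aa and 53.4% for H2-Eb1, but 99.0% for Cd74 and 216% for Ciita, the class II transactivator. These values were singled out after they were seen, and no test was made of them.

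Of 11 genes for receptors that read class I and class I-like proteins, 1 was listed, Klrk1, which encodes the NKG2D receptor of NK and T cells. It fell from 44.5 ± 11.1 to 11.4 ± 7.51 normalised counts (authors' deposited table, adjusted p = 0.0427), a call that limma did not make (adjusted p = 0.102).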
